A study of Mus musculus with 13 samples.

Results

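The olfactory receptor gene clusters of the mouse were examined as 4 windows of the mm9 build, and every peak whose midpoint lay in a window was taken as a member. The windows were 85 to 90.4 Mb of chromosome 2 (5.4 Mb), 109.6 to 115.6 Mb of chromosome 7 without the interval from 110.9 to 111.1 Mb (5.8 Mb), 37.5 to 40.1 Mb of chromosome 9 (2.6 Mb) and 73 to 74.2 Mb of chromosome 11 (1.2 Mb). Together they spanned 15.0 Mb and held 1143 of the 185431 peaks in 8 lists. The windows were defined by position alone, and no peak crossed an edge. Their gene content was not checked in mm9, because no annotation of that build was used here.

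The cells were embryonic stem cells of the J1 strain in which Setdb1 can be ablated by tamoxifen, and every library, the controls included, came from these inducible knockout cells. They were grown feeder-free on gelatin in serum with LIF. The untreated state is labelled as without tamoxifen, with DMSO named as the solvent control, and the treated state received 2.5 µM tamoxifen. The time in tamoxifen, the driver of the inducible system and the number of clones were not given in the sources used here, nor was it stated whether replicates were separate cultures, so the spread between libraries may be technical. H3K9me3 was mapped in 4 libraries of untreated cells. H3K27me3 was mapped in 2 libraries of untreated cells and 2 of tamoxifen-treated cells. H3K9me3 after tamoxifen and the 5 input libraries were not analysed here. Peak lists hold no expression, so neither Setdb1 loss nor stem cell identity could be checked in them.

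Olfactory receptor genes encode G protein-coupled receptors for odorants and form one of the largest gene families of the mouse, in dense clusters on many chromosomes. Each olfactory sensory neuron expresses a single receptor gene, and the silent ones lie in heterochromatin that carries H3K9me3. Setdb1 is a methyltransferase that deposits H3K9me3, in embryonic stem cells mainly at endogenous retroviruses together with the corepressor Trim28. H3K27me3 is deposited by Polycomb repressive complex 2, in these cells mainly over CpG-rich promoters of silent developmental genes.

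The promoters of the receptor genes are described here by their sequence alone. None was placed in a window or set against a peak, and a link of CpG content to either mark was not tested. In the gene order of the RefSeq table for GRCm38.p6, chromosome 2 carries a run of 222 receptor genes from Olfr987 to Olfr1274. Chromosome 7 carries a run of 126 from Olfr543 to Olfr692 and a next run of 67 from Olfr693 to Olfr519, with 21 other coding genes between them. Chromosome 9 carries 95 from Olfr160 to Olfr986, and chromosome 11 carries 30 from Olfr20 to Olfr412. The runs are not made of receptor genes alone. Other coding genes inside them number 3 on chromosome 2, 27 and 7 in the runs of chromosome 7, and 3 on chromosome 9. The run of chromosome 11 holds 2, Zfp735 and Zfp616. The middle gene with a promoter in each longest run is printed below, with Timm10b, which encodes a chaperone of the mitochondrial inner membrane import machinery and is the middle gene between the runs of chromosome 7. Each sequence spans 250 bases before and 50 bases after the table's start, in lower case with every CpG dinucleotide in capitals. The coordinates are of GRCm38.p6, which is not the build of the peaks.
Olfr1152: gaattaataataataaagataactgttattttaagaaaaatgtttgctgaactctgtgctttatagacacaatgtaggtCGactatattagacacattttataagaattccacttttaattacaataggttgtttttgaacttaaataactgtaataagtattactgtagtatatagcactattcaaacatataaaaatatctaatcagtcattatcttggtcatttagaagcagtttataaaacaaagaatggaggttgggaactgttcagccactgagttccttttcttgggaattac
Olfr622: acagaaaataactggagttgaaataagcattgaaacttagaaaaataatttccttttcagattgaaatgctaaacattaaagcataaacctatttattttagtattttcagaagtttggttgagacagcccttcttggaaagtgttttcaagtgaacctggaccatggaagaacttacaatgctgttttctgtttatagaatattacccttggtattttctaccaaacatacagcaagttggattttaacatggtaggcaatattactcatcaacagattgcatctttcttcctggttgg
Olfr930: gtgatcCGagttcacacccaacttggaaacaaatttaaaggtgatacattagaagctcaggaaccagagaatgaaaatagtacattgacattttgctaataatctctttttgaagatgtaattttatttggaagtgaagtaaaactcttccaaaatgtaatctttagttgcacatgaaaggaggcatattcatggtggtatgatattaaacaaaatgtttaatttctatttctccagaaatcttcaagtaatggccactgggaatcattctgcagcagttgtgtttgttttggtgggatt
Olfr395: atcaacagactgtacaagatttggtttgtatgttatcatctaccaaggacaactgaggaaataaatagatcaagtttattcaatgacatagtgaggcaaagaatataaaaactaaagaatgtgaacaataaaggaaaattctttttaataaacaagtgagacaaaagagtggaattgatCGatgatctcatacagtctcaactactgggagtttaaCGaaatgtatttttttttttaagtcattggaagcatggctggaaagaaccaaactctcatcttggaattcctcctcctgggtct
Timm10b: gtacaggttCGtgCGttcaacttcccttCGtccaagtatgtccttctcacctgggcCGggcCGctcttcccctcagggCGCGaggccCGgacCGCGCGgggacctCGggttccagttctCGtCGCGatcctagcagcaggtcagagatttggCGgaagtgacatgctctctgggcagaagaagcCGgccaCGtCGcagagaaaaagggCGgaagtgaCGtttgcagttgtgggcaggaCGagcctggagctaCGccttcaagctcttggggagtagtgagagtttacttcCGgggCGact
These windows lie at chr2:87867743-87868042 on the plus strand for Olfr1152, chr7:103640089-103640388 on the minus strand for Olfr622 and chr9:38929923-38930222 on the plus strand for Olfr930. Those of Olfr395 and Timm10b lie at chr11:73907441-73907740 on the minus strand and chr7:105640195-105640494 on the plus strand. The 4 receptor promoters hold 1, 0, 1 and 2 CpG dinucleotides in the order printed, and that of Timm10b holds 25. In all 4 receptor sequences the table's start is an ATG, but in that of Timm10b it is not. The receptor sequences thus show 250 bases before a start codon and 50 from it onward, which limits the comparison with Timm10b.

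Over the 5 runs, 461 of 540 receptor genes had 464 promoters in the table, with a median of 1 CpG dinucleotide in 300 bases and a range of 0 to 8. No CpG was found in 35.1% of them, and 89.0% held at most 2. Among 6075 promoters of the other protein-coding genes of the same chromosomes the median was 15, and 14.1% held at most 2. Over all 32851 promoters of the table the median was 7, and 23.3% held at most 2. None of the receptor promoters held 10 or more CpG dinucleotides, against 61.0% of the other promoters of these chromosomes and 43.5% of the whole table. The median GC content was 34.0% for receptor genes and 57.7% for the other genes. For 71.1% of the receptor promoters the table's start is an ATG, against 4.66% of the others, so most receptor entries show the bases before the start codon and not those before a transcription start. CpG was counted as the letters CG, which read the same on both strands.

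**Figure D1:**
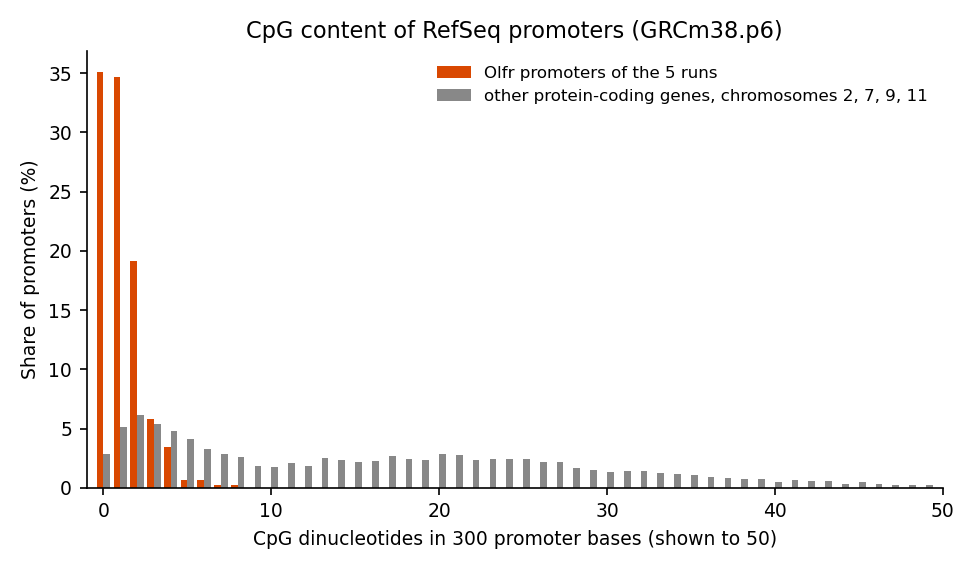
Share of RefSeq promoters (y axis, percent) by the number of CpG dinucleotides in 300 bases (x axis, shown to 50), for receptor genes of the 5 runs (464 promoters) and for other protein-coding genes of chromosomes 2, 7, 9 and 11 (6075 promoters). Receptor promoters lie between 0 and 8, whereas the others spread over the axis with a median of 15.

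H3K9me3 covered more of the receptor windows than of the rest of the same chromosomes in all 4 libraries. The rest of a chromosome is the span from the first to the last base reached by any list, without the window and the interval left out of it. The lists held 171, 234, 349 and 292 H3K9me3 peaks in the windows for replicates 1 to 4, which was 0.948, 0.796, 0.817 and 0.865% of each whole list. Per Mb of window, 31.1, 19.4, 30.8 and 24.4 kb were covered, against 17.5, 12.02, 18.5 and 14.4 kb per Mb of the rest. Every window value lay above the value outside in its own library. The ratio of windows to rest was 1.78, 1.61, 1.67 and 1.69, with a mean of 1.69 ± 0.0696 (SD, n = 4). The difference of 10.8 ± 2.76 kb per Mb (SD, n = 4) gave p = 0.125 in a two-sided exact sign-flip test, which is the smallest p that 4 libraries allow (0.213 after Benjamini-Hochberg adjustment over 8 tests).

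The number of peaks moved the same way. The windows held 17.4 ± 5.10 H3K9me3 peaks per Mb (SD, n = 4) and the rest 10.6 ± 3.59, a difference of 6.84 ± 1.59 that was positive in 4 of 4 libraries (exact sign-flip p = 0.125, adjusted 0.213). Against the 2 Mb on each side of the windows in place of the whole chromosome, the ratio of covered bases was 2.32, 1.95, 1.96 and 2.01. Replicate 1, whose peaks were called with another MACS2 version than those of the other libraries, had the highest ratio against the chromosome (1.78) and against the flanks. Within the 3 libraries of the later version the ratio against the chromosome was 1.61 to 1.69.

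The windows differed in how far H3K9me3 exceeded its chromosome. On chromosome 11, the shortest window, covered bases were 5.09, 4.19, 3.94 and 3.89 times those of the rest of the chromosome in replicates 1 to 4, a mean ratio of 4.28 ± 0.556 (SD, n = 4). On chromosome 9 the ratios were 1.74, 2.098, 1.96 and 2.24, with a mean of 2.01 ± 0.213. On chromosome 2 they were 1.95, 1.38, 1.66 and 1.53, with a mean of 1.63 ± 0.240. On chromosome 7 they were 1.08, 1.06, 1.11 and 1.16, with a mean of 1.10 ± 0.045. The chromosome 11 window ranked first and the chromosome 7 window last in 4 of 4 libraries, whereas chromosomes 9 and 2 changed places in replicate 1. In each window all 4 libraries lay above the rest of the chromosome (exact sign-flip p = 0.125 in each, adjusted 0.125 over the 4 windows). The rest of chromosome 7 included chr7:39197681-46552871, 7355 kb with no peak in any list, which raised its window-to-rest ratios for both marks. The ratios without that interval were not computed. Against the 2 Mb on each side of the window, the chromosome 7 ratios for H3K9me3 were 1.93, 1.12, 1.37 and 1.44.

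In kb per Mb, the chromosome 11 window had 74.7, 49.4, 72.0 and 64.4 against 14.7, 11.8, 18.3 and 16.5 outside it. The chromosome 9 window had 32.2, 29.7, 42.9 and 36.2 against 18.5, 14.2, 21.8 and 16.1. On chromosome 2 the window had 28.2, 13.5, 25.0 and 17.1 against 14.5, 9.72, 15.0 and 11.2. The chromosome 7 window had 24.4, 14.0, 22.3 and 17.6, but the rest of chromosome 7 had 22.6, 13.2, 20.1 and 15.1. Chromosome 7 outside its window was the most covered of the 4 in replicate 1, but it was less covered than chromosome 9 in replicates 2 to 4. Over the libraries, the excess of the chromosome 7 window was 1.79 ± 0.730 kb per Mb (SD, n = 4) against 49.8 ± 9.50 on chromosome 11.

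**Figure D2:**
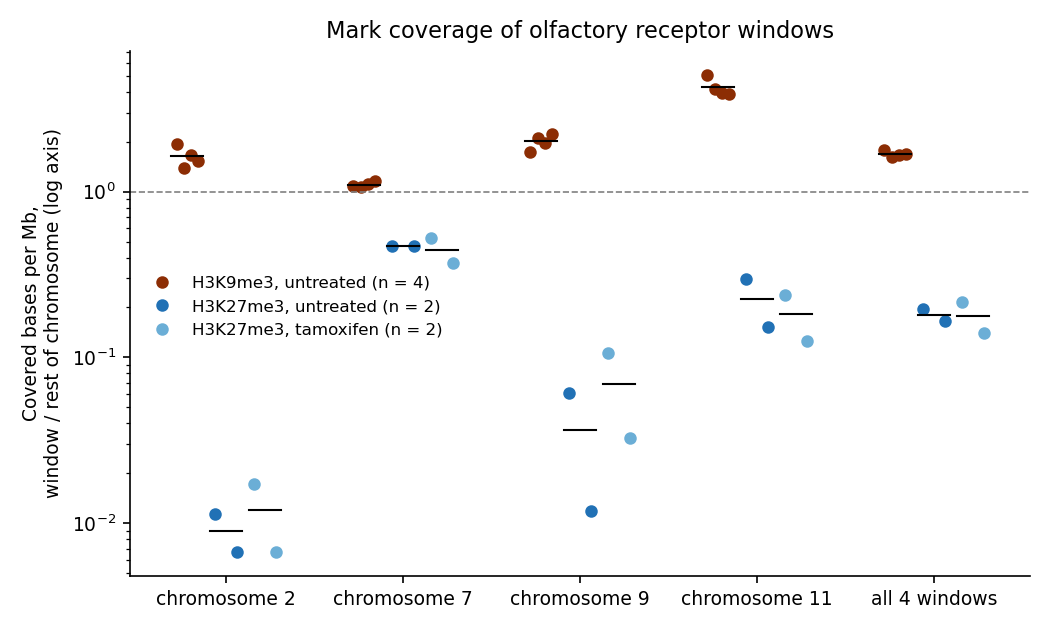
Covered bases per Mb in each window divided by those per Mb in the rest of its chromosome (log axis), for each library, with bars at group means and a dashed line at a ratio of 1. H3K9me3 libraries (n = 4) lie above 1 in every window and H3K27me3 libraries (2 untreated, 2 tamoxifen) below 1 in every window.

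The median width of H3K9me3 peaks in the windows was close to that elsewhere in each library. Median widths were 1999, 778, 872 and 872 bp in the windows and 1954, 798, 810 and 809 bp in the rest, so replicate 1 had peaks more than 2 times as wide in both places. The difference was 37.5 ± 39.2 bp (SD, n = 4), positive in 3 of 4 libraries (two-sided exact sign-flip p = 0.25, adjusted 0.333 over the 8 tests). The smallest p that 4 libraries allow in this sign-flip test is 0.125, so it cannot decide whether the widths differ. Peaks of 5 kb or more made up 14.6, 2.56, 2.58 and 2.05% of window peaks and 18.2, 2.65, 2.84 and 2.56% of the others.

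Touching or overlapping peaks of the 4 H3K9me3 lists merged into 419 regions in the windows. All 4 libraries held 104 of them, or 24.8% (exact Clopper-Pearson 95% interval 20.8 to 29.2%, counting error only), against 2018 of 10014 in the rest (20.2%, 19.4 to 21.0%). These shared regions came at 6.93 per Mb of window and 3.65 per Mb of the rest, a ratio of 1.90. The density was 17.5 per Mb on chromosome 11 (21 regions), 7.31 on chromosome 9 (19), 6.11 on chromosome 2 (33) and 5.34 on chromosome 7 (31). Without replicate 1 the number held by the other 3 libraries was 167, at 11.1 per Mb against 6.69 outside, a ratio of 1.66. When each library had to cover at least 50% of a region, 46 of the 104 remained.

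The 3 widest shared regions on chromosome 9 and 2 of the 3 on chromosome 11 were covered over at least 50% in every library. On chromosome 11 the region at chr11:73936524-73957894 spanned 21371 bp and was covered over 91.6, 61.6, 64.1 and 56.5% of its length by replicates 1 to 4. The one at chr11:73486311-73495398 spanned 9088 bp and was covered over 91.9 to 99.7%. The third widest there, chr11:73757886-73765815, spanned 7930 bp with 65.9, 41.1, 55.3 and 77.1% covered. On chromosome 9 the region at chr9:38435542-38453097 spanned 17556 bp with 67.3, 79.7, 93.8 and 83.0% covered. Less than 3 kb away on its lower side lay chr9:38425524-38433828 (8305 bp, 60.9 to 97.8% covered), and further in that direction lay chr9:38216012-38229062 (13051 bp, 68.0 to 94.4%). All 3 of the chromosome 9 regions were at least 60.9% covered in every library.

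On chromosome 2 the widest shared regions were broad in replicate 1 alone. The region at chr2:85533817-85542971 spanned 9155 bp, of which replicate 1 covered 94.0% and replicates 2 to 4 covered 11.6, 21.7 and 8.19%. Those at chr2:86179604-86188318 (8715 bp) and chr2:87773578-87782080 (8503 bp) had the same pattern, with 95.6 and 91.8% covered in replicate 1 and 8.89 to 23.9% in the others. On chromosome 7 the widest, chr7:110438285-110447705 (9421 bp), lay wholly (100%) under replicate 1 peaks, while replicates 2 to 4 reached 7.07 to 37.2% of it. The next there, chr7:115329063-115337270 (8208 bp, 75.5 to 96.7%) and chr7:110221477-110228624 (7148 bp, 52.9 to 85.6%), were covered over at least 50% in all 4 libraries. Of the 29 shared regions of 5 kb or more in the windows, 13 were covered over at least 50% in every library and 11 in replicate 1 alone. The rest of the chromosomes had 259 and 253 of 675, so this split was also present outside the receptor windows.

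**Figure D3:**
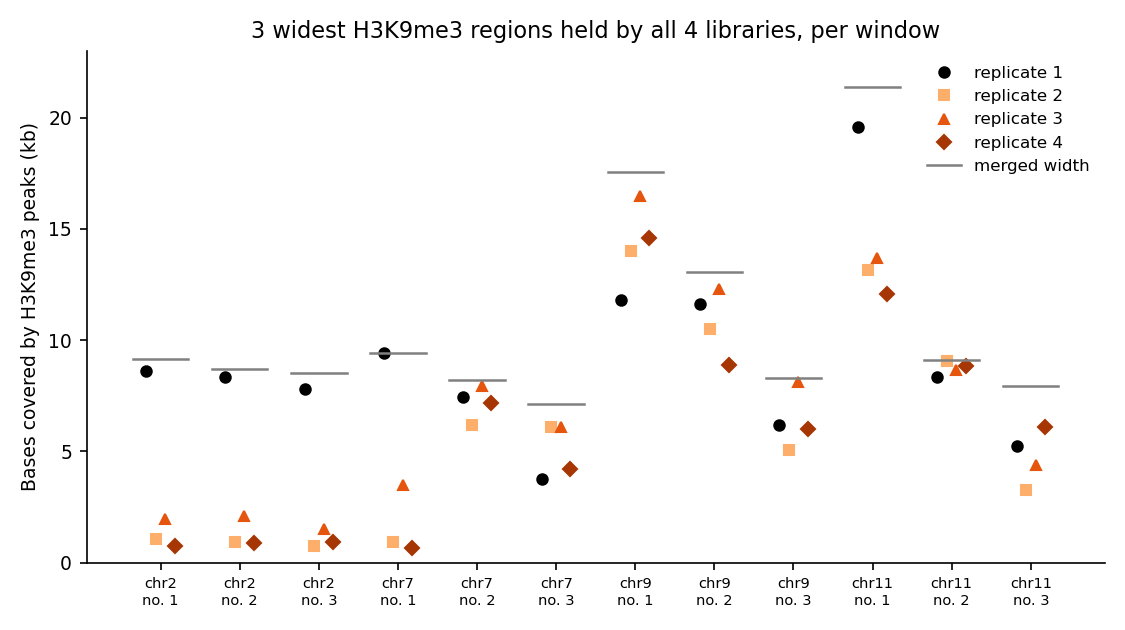
Bases covered (y axis, kb) by the H3K9me3 peaks of each library in the 3 widest shared regions of each window (x axis), with grey lines at the merged width. For the 3 regions of chromosome 2 and the widest of chromosome 7 only replicate 1 lies near the merged width. On chromosome 9 every library covers at least 60.9% of each region, and on chromosome 11 the cover ranges from 41.1 to 99.7%.

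H3K27me3 covered far less of the receptor windows than of the rest of the same chromosomes in all 4 libraries. The untreated lists held 14 and 25 H3K27me3 peaks in the windows and the tamoxifen lists 30 and 28, which was 0.199, 0.146, 0.199 and 0.126% of each whole list. Covered bases were 2.50 and 2.61 kb per Mb in untreated cells and 2.58 and 2.51 after tamoxifen. Outside the windows they were 12.8 and 15.8 in untreated cells and 12.04 and 17.9 after tamoxifen. The window values spanned 2.50 to 2.61 kb per Mb over the 4 libraries, while those outside spanned 12.04 to 17.9. The ratio of windows to rest was 0.196, 0.165, 0.214 and 0.140, a mean of 0.179 ± 0.0328 (SD, n = 4). The difference of -12.1 ± 2.72 kb per Mb (SD, n = 4) was negative in 4 of 4 libraries (two-sided exact sign-flip p = 0.125, adjusted 0.213). Per Mb, the lists had 0.933, 1.67, 2.00 and 1.87 peaks in the windows and 3.61, 9.10, 7.48 and 11.6 outside.

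The marks therefore departed from their chromosomes in opposite directions. In untreated cells the mean ratio was 1.69 for H3K9me3 and 0.180 for H3K27me3, a difference of 1.51 (two-sided exact permutation p = 0.133 for 4 against 2 libraries, the smallest p possible, adjusted 0.213 over the 8 tests). With the tamoxifen libraries included the difference was 1.51 again, with exact permutation p = 0.0286 for 4 against 4, also the smallest possible and not adjusted. In that comparison only the H3K27me3 side holds treated cells, so the groups differ in treatment as well as in mark. No H3K9me3 library overlapped any H3K27me3 library in this ratio.

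The order of the windows for H3K27me3 was not that for H3K9me3. Chromosome 7 had the highest ratios of covered bases, 0.470 and 0.471 in untreated cells and 0.523 and 0.369 after tamoxifen. Chromosome 11 had 0.296 and 0.152, then 0.239 and 0.125. Chromosome 9 had 0.0612 and 0.0118, then 0.106 and 0.0327. Chromosome 2 had 0.0113 and 0.0067, then 0.0172 and 0.0067, so its window was covered at under 2% of the level of its chromosome. This order, 7, 11, 9 and 2, held within 4 of 4 libraries, but the ranges of neighbouring chromosomes 9 and 2 overlapped between libraries. The chromosome 2 window, 5.4 Mb long, contained 1, 2, 2 and 3 peaks in the 4 lists, and that of chromosome 9 contained 1, 2, 3 and 1.

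Most of the H3K27me3 in the windows lay in a single stretch of chromosome 7, chosen after the peaks had been seen. Between 112.5 and 113 Mb, 22 merged H3K27me3 regions ran from chr7:112571922 to chr7:112950635 over 379 kb. This stretch held 6 and 15 of the untreated peaks and 13 and 15 of the tamoxifen peaks. It accounted for 62.7 and 81.9% of the H3K27me3 bases of all 4 windows in untreated cells and 63.4 and 79.6% after tamoxifen. Each H3K9me3 list had 1 peak there. Whether the stretch coincides with the non-receptor genes that separate the runs of chromosome 7 was not tested, since the gene order came from another build.

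All 4 libraries held 8 of the 50 merged H3K27me3 regions in the windows, or 16.0% (exact Clopper-Pearson 95% interval 7.17 to 29.1%), close to the 15.8% of 8874 regions outside. They came at 0.533 per Mb of window against 2.53 per Mb of the rest, 4.74 times fewer. The chromosome 7 stretch had 4 of them. The widest, chr7:112902775-112914817 (12043 bp), had 4924 and 8919 bp covered in untreated cells and 5475 and 10303 bp after tamoxifen. Next to it, chr7:112930008-112940148 (10141 bp) had 8916 and 8239 bp, then 6528 and 5577 bp. In chr7:112571922-112577826 (5905 bp), 5905 and 4364 bp were covered without tamoxifen and 5092 and 3721 bp with it. The fourth, chr7:112628022-112632375 (4354 bp), had 3274 and 2933 bp, then 4260 and 2975 bp. Only the second of these had both tamoxifen values below both untreated values.

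The other 4 shared H3K27me3 regions were mostly near a window edge. On chromosome 11 they were chr11:74183539-74186486, 13.5 kb from the edge, and chr11:73140881-73145489, 141 kb from it. On chromosome 9 the shared region was chr9:40074874-40077462, 22.5 kb from the edge. Chromosome 2 had the single shared region away from both the edges and the chromosome 7 stretch, chr2:87277445-87279033 (1589 bp), with 823 and 362 bp covered in untreated cells and 933 and 214 bp after tamoxifen. Among regions held by 2 or 3 libraries, the widest were chr7:109659492-109664396 (4905 bp, replicate 1 of both states), chr7:112918415-112922356 (3942 bp, replicate 2 of both states) and chr7:112582583-112584877 (2295 bp, all but replicate 1 of untreated cells).

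Away from the chromosome 7 stretch and the outermost 200 kb of each window, 12.9 Mb remained. There the untreated H3K27me3 lists had 3 and 3 peaks and the tamoxifen lists 7 and 5, which covered 0.184, 0.108, 0.261 and 0.101 kb per Mb. These values were 0.0144, 0.0068, 0.0217 and 0.0056 of the rest of the chromosomes. H3K9me3 had 154, 213, 313 and 261 peaks in the same 12.9 Mb, and its ratio to the rest was 1.89, 1.75, 1.81 and 1.83. Since the stretch was chosen for its H3K27me3 peaks, leaving it out had to lower the H3K27me3 values, which are given as a description. H3K9me3 remained above the rest of the chromosomes in 4 of 4 libraries. Each H3K9me3 list had only 1 peak in the stretch, so leaving the stretch out had to raise these values. They are likewise a description.

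**Figure D4:**
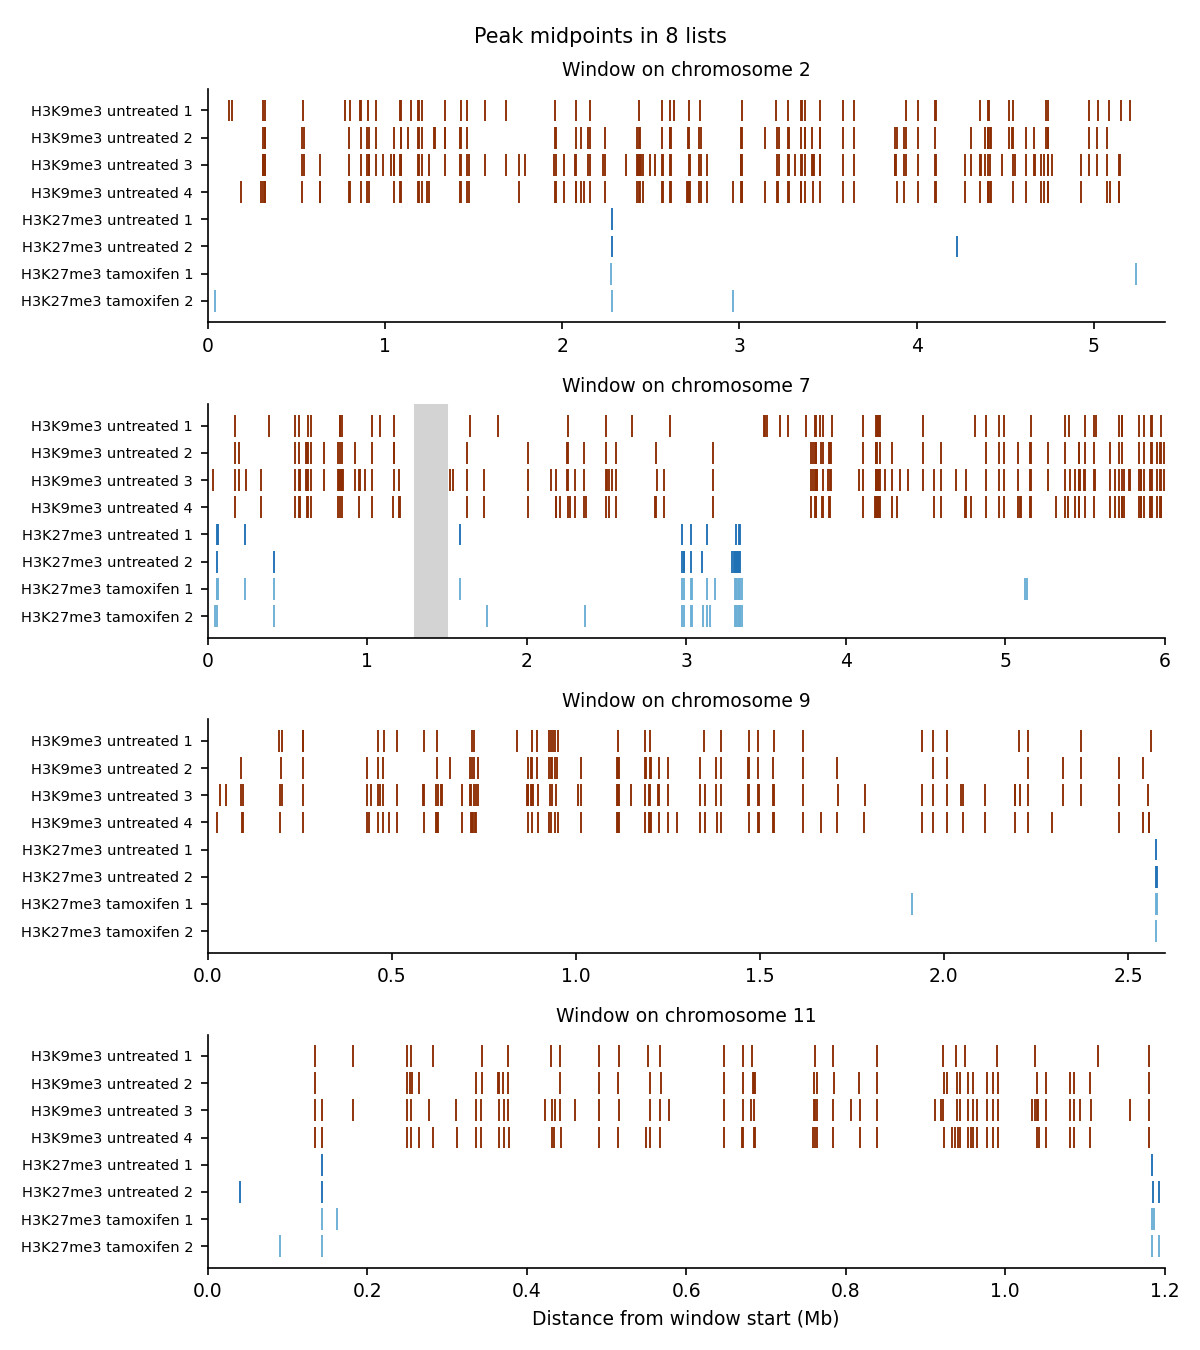
Midpoints of the peaks of each of the 8 lists along each window (x axis, Mb from the window start), with the left-out interval of the chromosome 7 window in grey. H3K9me3 marks run along each window and many recur in the 4 lists, whereas H3K27me3 marks gather around 3 Mb in the chromosome 7 window and near the ends of the chromosome 9 and 11 windows.

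Long stretches of the windows had no H3K27me3 peak in any list. The longest were chr2:85043588-87277444 (2234 kb, 41.4% of its window), chr7:112950636-114726217 (1776 kb), chr9:37500001-39413105 (1913 kb, 73.6%) and chr11:73161762-74183538 (1022 kb, 85.1%). Each was shorter than the longest such stretch in the rest of its chromosome, which measured 3087, 7502, 3243 and 2095 kb in the same order. The rest is far longer than the windows, at 173, 144, 118 and 118 Mb, and can hold a longer stretch for that reason alone. On chromosome 11 its longest stretch exceeded the whole window of 1.2 Mb, so that outcome was fixed. The 7502 kb on chromosome 7 included chr7:39197681-46552871, where no list of either mark had a peak. It therefore does not measure an absence of H3K27me3 alone. By contrast, the longest stretches with no peak of either mark were 228, 183, 173 and 71.5 kb in the windows. They were chr2:88648456-88876799, chr7:111422496-111605288, chr9:37760107-37932761 and chr11:73686414-73757885, and the rest had 599, 7355, 636 and 461 kb. The unequal length of windows and rest limits this comparison too.

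The marks overlapped at 2 places in the windows. On chromosome 11, H3K9me3 peaks of replicate 3 (chr11:73143618-73143846) and replicate 4 (chr11:73143322-73143649) lay within the shared H3K27me3 region 141 kb from the edge, sharing 229 and 328 bp with the peak of each of the 4 H3K27me3 lists. On chromosome 2, a peak of H3K9me3 replicate 4 (chr2:87963281-87963460) shared 157 bp with one of tamoxifen replicate 2. Thus 2 of the 50 H3K27me3 regions of the windows (4.0%) touched an H3K9me3 peak, against 180 of 8874 in the rest (2.03%). The median distance from an H3K27me3 region to the nearest H3K9me3 peak was 33.1 kb in the windows and 27.3 kb in the rest. Of the 50 window regions, 22 lay in the chromosome 7 stretch, where each H3K9me3 list had 1 peak. The window median therefore leans on that stretch, and the median without it was not computed.

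In whole 1 Mb bins the receptor windows sat toward high H3K9me3 and low H3K27me3. Of 13 window bins, 8 had more H3K9me3 covered bases than the mean bin outside the windows in all 4 libraries, against 24.0% of all 558 bins of these chromosomes. Below the mean in all 4 H3K27me3 libraries were 12 of 13, against 60.4%. No H3K27me3 peak in any list was present in 4 of 13 bins, against 10.2%. The median window bin had 22.6 kb under H3K9me3 peaks and 0.113 kb under H3K27me3 peaks (means of 4 libraries), and the median bin of the rest had 10.5 and 8.18 kb. The chromosome 11 bin, with 70.6 kb of H3K9me3, exceeded 99.1% of the 115 other bins of its chromosome. The 1 exception for H3K27me3 was the chromosome 7 bin that holds the stretch, with 27.5 kb of H3K27me3 and 5.58 kb of H3K9me3. Neighbouring bins are not independent, and no test was made over them.

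**Figure D5:**
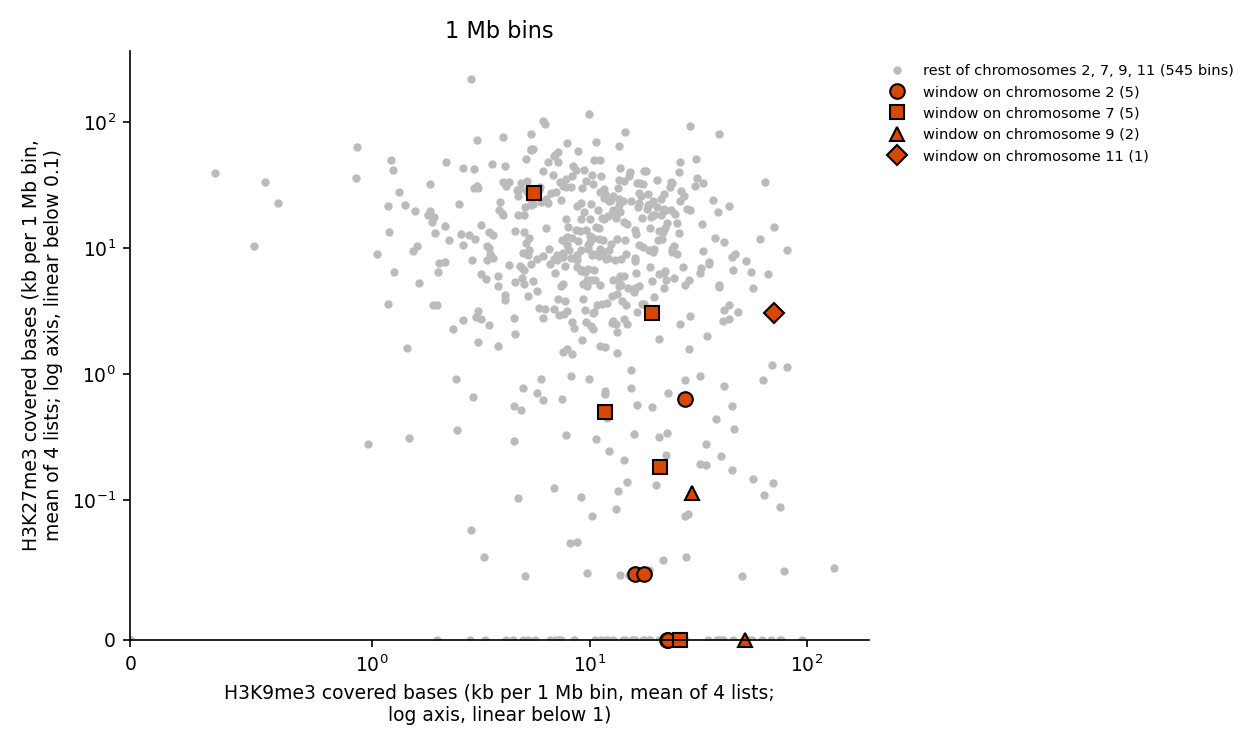
Covered bases per 1 Mb bin (kb, mean of 4 lists) of H3K9me3 (x axis) and H3K27me3 (y axis), both log axes that become linear near 0, for 13 window bins and 545 bins of the rest of the same chromosomes. Of the window bins, 4 lie at 0 for H3K27me3, and a single chromosome 7 bin lies high for H3K27me3 (27.5 kb) and low for H3K9me3 (5.58 kb).

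Tamoxifen was compared for H3K27me3 only. Covered bases in the windows differed by -0.0121 kb per Mb between tamoxifen and untreated libraries (two-sided exact permutation p = 1.0 over 2 against 2, where 0.333 is the smallest possible, adjusted 1.0). The difference was 0.0808 kb per Mb between the replicate 1 libraries and -0.105 between the replicate 2 libraries, so these differences had opposite signs. The number of peaks differed by 0.633 per Mb (exact permutation p = 0.333, adjusted 0.381), with both tamoxifen lists above both untreated lists. With peaks of at least 500 bp this difference was 0.0667 per Mb (exact permutation p = 1.0), and without replicate 1 of untreated cells it was 0.267. Divided by the peaks per Mb outside the windows in the same list, this difference was -0.0063 (exact permutation p = 1.0), with 0.258 and 0.183 in untreated cells and 0.267 and 0.162 after tamoxifen. The difference in this ratio was 0.009 between the replicate 1 libraries and -0.0216 between the replicate 2 libraries. The part of list length in the peak difference was not tested. Untreated replicate 1 was the shortest whole list, with 7041 entries against 17094 for untreated replicate 2. The lists of tamoxifen replicates 1 and 2 had 15116 and 22265. Untreated replicate 1 also had the widest window peaks, with a median of 2123 bp against 846 bp for untreated replicate 2. For tamoxifen replicates 1 and 2 the median was 520 and 684.5 bp. The part of this list in the peak difference was not tested further.

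By window, the chromosome 7 counts of H3K27me3 peaks were 10 and 17 for the untreated lists and 21 and 20 for the tamoxifen lists, with 5.03 and 5.82 kb per Mb, then 5.22 and 5.47. On chromosome 11 the lists had 2 and 4 peaks, then 4 and 4, with 4.82 and 3.74 kb per Mb, then 3.78 and 3.44. On chromosome 2 the values were 0.152 and 0.102 kb per Mb, then 0.216 and 0.113. On chromosome 9 they were 0.669 and 0.145, then 1.06 and 0.438. The covered bases of tamoxifen and untreated lists overlapped in all 4 windows, whereas the peak counts on chromosome 7 did not. Divided by the peaks per Mb of the rest of chromosome 7, the counts did overlap, at 0.526 and 0.382 in untreated cells and 0.562 and 0.350 after tamoxifen (difference 0.002, two-sided exact permutation p = 1.0).

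A single H3K27me3 region in the windows was held by both tamoxifen lists and neither untreated list. It was chr7:112633215-112633461 (247 bp), inside the chromosome 7 stretch and less than 1 kb from a region shared by all 4 libraries, and 146 and 191 bp of it were covered. This class was 1 of 50 regions (2.0%) in the windows and 180 of 8874 (2.03%) in the rest. No region was held by both untreated lists and neither tamoxifen list, and 0 of 50 allows a share of up to 6.0%. The share in the rest, 22 of 8874 (0.248%), lies below that limit, so no difference could be detected with this number of regions.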

How the data were processed

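ChIP-seq peak lists of 8 libraries were used as the authors deposited them. They hold a chromosome, a start and an end per peak, with no score or read count, so the depth behind a peak is unknown and interval and overlap counts cover counting error only. Per the submitters' processing notes, reads were processed with Bowtie 0.12.7, MACS2 and mm9, with MACS2 2.0.10 listed for replicate 1 of each group and 2.1.0 for the others. The treatment of reads with several matches, the peak thresholds and the control used for calling were not given in the sources used here, and receptor genes are similar in sequence. H3K9me3 replicate 4 was grouped by its title, because its antibody entry reads none. Replicate 1 carries no number in its title, so the number names a library and the pairing by number is not from the labels. No pair of the 28 pairs of lists shared more than 1 identical peak.

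Peaks were assigned by midpoint, starts were counted from 1, and covered bases were summed per library, which is the replicate. Differences were tested with two-sided exact sign-flip or permutation tests (p is 2 times the smaller tail, at most 1), adjusted over 8 tests by Benjamini-Hochberg. Merged regions counted as held with at least 1 bp covered. Regions named are the 3 widest H3K9me3 regions held by all libraries per window, the 10 widest H3K27me3 regions held by at least 2, overlaps of both marks and the longest peak-free stretches; the chromosome 2 shared H3K27me3 region and the region called only after tamoxifen are named beyond that rule, after their values were seen. Runs of receptor genes allow up to 20 other coding genes between neighbours. On simulated peaks, 1600 of 1600 planted regions and 32 of 32 window sums were recovered. Members and lists were chosen with earlier results of these data known. The software was SciPy 1.17.1 for tests, pandas 2.3.3 and NumPy 2.4.6 for tables and Matplotlib 3.10.9 for figures, under Python 3.11.15.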

Additional observations from a re-analysis of the deposited data

Results flagged for a closer look

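The median width of H3K9me3 peaks in replicate 1 stood apart from the other 3 libraries. It was 1999 bp over all 4 windows, against 778 to 872 bp in replicates 2 to 4, and 2106 bp in the chromosome 7 window, against 756.5 to 844.5 bp. In each case the gap to the nearest library was above Dixon's 95% critical value for 4 samples, which chance exceeds in about 1 of 20 sets; 25 sets of 4 values were examined. In the rest of the chromosomes replicate 1 also had wider peaks, with a median of 1954 bp against 798 to 810 bp. Its peaks came from MACS2 2.0.10 and those of the other 3 from 2.1.0. For H3K27me3, replicate 1 of each state also came from 2.0.10. Its median width outside the windows was 2609 bp in untreated cells and 784 bp after tamoxifen. Replicate 2, from 2.1.0, had 815 and 749 bp. The part of the caller version in the width was not tested.

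The ratio of H3K27me3 covered bases to the rest of the chromosome moved in different directions with tamoxifen in different windows. It was higher by 0.0326 on chromosome 9 and by 0.0029 on chromosome 2, and differed by -0.0424 on chromosome 11. The within-number differences were 0.0444 and 0.0209 on chromosome 9, 0.0059 and 0.0 to 4 decimals on chromosome 2, and -0.0571 and -0.0278 on chromosome 11. The difference between windows was not tested, and the chromosome 2 and 9 values rest on 1 to 3 peaks per list.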

How the results depend on the processing

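Of 122 alternative values, 103 kept their direction and their side of the threshold, or for counts stayed within 1.5 times. The window excess of H3K9me3 ran from 8.21 to 19.4 kb per Mb and the deficit of H3K27me3 from -18.2 to -6.18 kb per Mb over all alternatives; peak numbers kept their directions too. No sign-flip test of 4 libraries can pass 0.05, so these p-values say nothing about stability. With all 4 H3K27me3 libraries the ratio difference was 1.51 at exact permutation p = 0.0286, with treated cells on the H3K27me3 side only. The width difference kept its direction in 10 of 11 alternatives. It was -98.1 bp in the wider 50% of each list, and at most 65.75 bp, with flanks of 2 Mb as the reference (exact sign-flip p = 0.125). The tamoxifen difference in covered bases was -0.175 kb per Mb with peaks of at least 500 bp, -0.0657 with windows trimmed by 100 kb, 0.0581 kb per Mb with the wider 50%, 0.0798 with windows widened by 500 kb and 0.0261 without the chromosome 7 stretch, an alternative added after seeing the data; leaving out 1 library gave -0.0673 to 0.0432. The causes were not tested. The difference in peaks per Mb was 0.0667 with peaks of at least 500 bp, 0.167 with the wider 50%, 0.414 without the stretch, 1.53 with widened windows and 0.267 to 1.0 with 1 library left out; divided by the rest it was -0.0063. The replicate block left the differences at -0.0121 kb per Mb (exact permutation p = 1.0) and 0.633 peaks per Mb (exact permutation p = 0.5), changing no call. Shared H3K9me3 regions numbered 46 with 50% cover required and 107 to 167 with 1 library left out, the most without replicate 1. Shared H3K27me3 regions numbered 3 with 50% cover and 4 without the chromosome 7 stretch. Regions called only after tamoxifen numbered 0 with peaks within 1 kb merged, 0 with peaks of at least 500 bp, and 1 to 15 with 1 library left out; those lost numbered 0 to 8 with 1 library left out. Fewer lists are required to agree in those counts. Depth was unknown and limits every absence of a peak.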
